A study of Oryza sativa with 12 samples.

Results

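The effect of the *Oslec1* mutation on the embryo transcriptome was compared between the late stage (LE, 25 days after pollination, DAP) and the early stage (EE, 7 DAP), using all 12 libraries of the series. The mutant libraries came from embryos of *Oslec1*, a CRISPR/Cas9 mutant line of *OsLEC1* with a frameshift, and the others from embryos of its parent, the rice cultivar Nipponbare (NIP). The paper states that a truncated protein with the DNA-binding domain may still be made, and does not exclude residual or additional functions. Each genotype and stage had 3 replicates, giving 3 *Oslec1* LE, 3 NIP LE, 3 *Oslec1* EE and 3 NIP EE libraries of polyadenylated RNA, from pools of embryos of plants grown in a greenhouse under the same light cycle. The mutant RNA is from 1 line, so other differences of that line from NIP cannot be told apart from the mutation of *OsLEC1*. The codes of the libraries split by stage, so stage and library code cannot be told apart, and every effect of the genotype was therefore taken within a stage.

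LEC1 proteins are B subunits of the nuclear factor Y complex, a DNA-binding trimer, and in Arabidopsis LEC1 is a regulator of embryo and seed maturation that keeps the embryo from taking on features of a seedling. Cereal embryos first lay down their organs, then fill with reserves, dry and become dormant. The genes described here act in photosynthesis, which a rice embryo normally does not carry out, in the breakdown and building of walls, in the breakdown and binding of chitin, in transport, and in storage. The count table gives nuclear genes by identifier only. Functions below are therefore the Gene Ontology (GO) groups that the study's supplement lists for genes upregulated in *Oslec1* at EE, and a gene outside those lists has no function given here. *OsLEC1* itself and markers of embryo and endosperm were not analysed here for the same reason.

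Counts on genes summed to 16113922 to 27213238 per library. In a fit of edgeR's quasi-likelihood model to the 12 libraries, 24903 of 38978 genes passed the filter on low counts. Values below are counts scaled by TMM-normalized library size (CPM), effects are log2 ratios of *Oslec1* to NIP within a stage with their standard error (SE), and the interaction is the effect at LE minus the effect at EE. Calls rest on edgeR's p-values, adjusted by Benjamini-Hochberg over all 24903 genes, with 0.05 as the threshold. Replicates are taken as separate pools of embryos, and the counts of all 12 pairs of replicates differed by more than sampling noise. *Oslec1* LE replicate 1 was farther from replicates 2 and 3 (chi-square per gene 21.8 and 23.1) than these were from each other (5.82), and the highest value, 33.4, was that of NIP LE replicates 1 and 3. The 2 most abundant genes of NIP EE embryos, which have no function given here, averaged 601 and 1570 CPM in *Oslec1* EE and 131316 and 88187 CPM in NIP EE embryos, where they held 9.36% and 6.3% of all counts. Their effects at EE were -7.77 and -5.81, and their called interactions were 6.95 and 5.84. TMM gave the NIP EE libraries factors of 0.686 to 0.745 and the other libraries 1.04 to 1.18, so the interaction depends on this scaling.

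The effect of *Oslec1* differed between the stages for 8321 genes, 33.4% of those tested, and for 1984 genes (7.97%) by at least 4-fold, 973 with the higher effect at LE (3.91%) and 1011 with the lower one (4.06%). Higher effects at LE (4155 genes, 16.7%) and lower ones (4166 genes, 16.7%) were equally frequent. Both TMM and RLE factors centre the ratios near 0, and the share of calls higher at LE was 49.9% with TMM and 52.8% with RLE, so the even split follows from the centring and is not a result. With library size alone as the scaling, 12728 genes were called, and only 14.8% of them were higher at LE, while the median interaction of all genes was -0.59, against -0.04 with TMM. At 4-fold or more the split also depended on the filter. With at least 10 counts in every library, 526 such genes were higher and 228 lower at LE. Directions are given here relative to the TMM scaling.

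The larger effect was usually the one at EE. Of the 8321 genes, 3378 (40.6%) had a called effect at EE alone, 1720 (20.7%) at LE alone, and 1649 (19.8%) had effects of the same direction at both stages that were larger at EE. The same direction with the larger effect at LE was found for 393 genes (4.72%), of which 291 were higher in *Oslec1*. Effects were called in opposite directions for 1002 genes (12%), and 179 genes (2.15%) had a called interaction with no called effect at either stage. In the whole table, *Oslec1* was higher at LE for 25.7% of the genes and lower for 22.8%, and higher at EE for 30.4% and lower for 25.9%. Effects at LE of at least 4-fold were found in 8.71% of the genes with *Oslec1* higher and in 1.37% with *Oslec1* lower. With library size only, 7667 genes were called higher in *Oslec1* and 3797 lower at LE, and 15972 higher and 2175 lower at EE, whereas TMM gave 7560 higher and 6438 lower at EE.

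**Figure D1:**
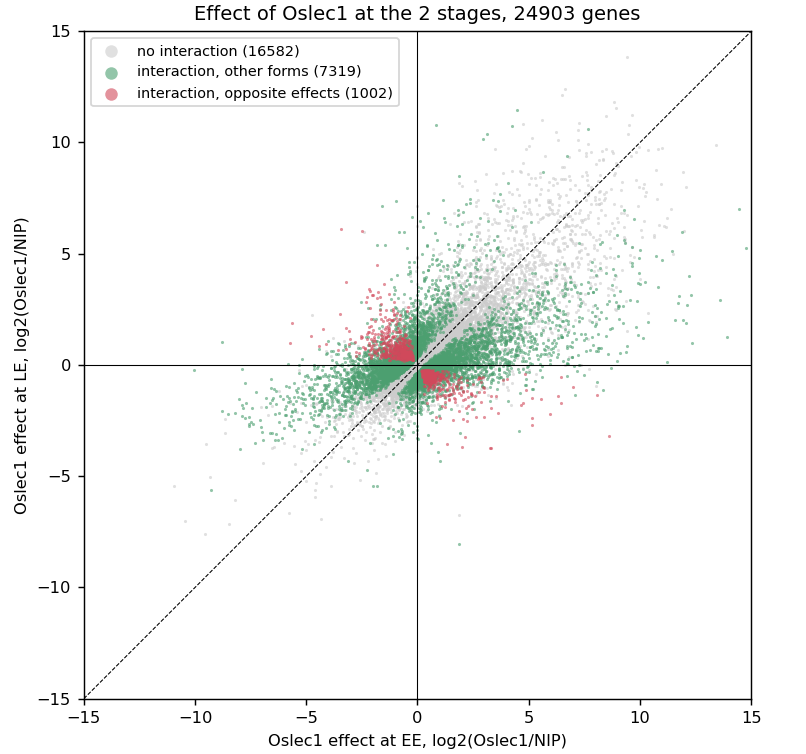
Effect of *Oslec1* on each of the 24903 tested genes, as log2(*Oslec1*/NIP), at LE (vertical axis) and at EE (horizontal axis). Grey points have no called interaction, green points have one, and red points are the 1002 genes with called effects of opposite direction. The dashed line marks equal effects, and more green points spread along the EE axis than along the LE axis.

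The interaction was also read as the change between the stages in each genotype. Since each stage has its own library code, every such change, here and below, may hold an effect of the code as well as of development. A code effect that acted alike on both genotypes would drop out of the interaction, and whether it did so was not tested. Among the 1984 genes with an interaction of at least 4-fold, the absolute log2 change between LE and EE had a median of 1.2 in *Oslec1* embryos and 2.42 in NIP embryos, and it was larger in NIP for 1375 genes (69.3%). The change was called in *Oslec1* alone for 336 genes and in NIP alone for 651 genes. Both genotypes changed in the same direction for 485 genes and in opposite directions for 499 genes. In 312 of these 499, the gene was higher at LE than at EE in *Oslec1* and lower at LE than at EE in NIP. No counts were found in any of the 3 NIP EE libraries for 118 of the 1984 genes, in the NIP LE libraries for 27 and in the *Oslec1* EE libraries for 9. Fitted log2 values of such genes are no bounds, so their folds are given against a floor of 3 counts per library.

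The GO lists hold 473 tested genes, and 468 of them were at least 4-fold higher in *Oslec1* at EE. Since the study chose these genes by their rise at EE on the same libraries, a lower effect at LE is partly built in, and the lists are set here against all 2956 genes with such an effect at EE. Of those 2956 genes, 38.2% had a lower effect at LE, 1.96% a higher one, 70.9% were also higher in *Oslec1* at LE, and the median effect was 2.07 at LE and 3.46 at EE, with a median interaction of -1.63. In 1.86% *Oslec1* was lower at LE, and these were the same 1.86% that had reversed effects. Of the 1009 genes that were at least 4-fold lower in *Oslec1* at EE, which have no list here, 60.2% were also lower at LE and 5.15% were higher. The interaction was higher at LE for 74.3% of the 1009 genes and lower for 0.396%, again with the sign that the choice by the effect at EE favours. Of the 473 listed genes, 255 had a called interaction, 24 with a higher and 231 with a lower effect at LE. Several lists are shortened copies of 30 genes, so their counts describe the genes in the copy, and some genes belong to more than 1 list. Below, an interaction lower at LE is a called one with the lower effect at LE, and the count of each list is to be read against the 38.2%. Counts of a higher effect at LE are to be read against the 1.96%, and counts higher in *Oslec1* at LE against the 70.9%. Counts higher in *Oslec1* at EE follow from the choice of the lists.

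**Figure D2:**
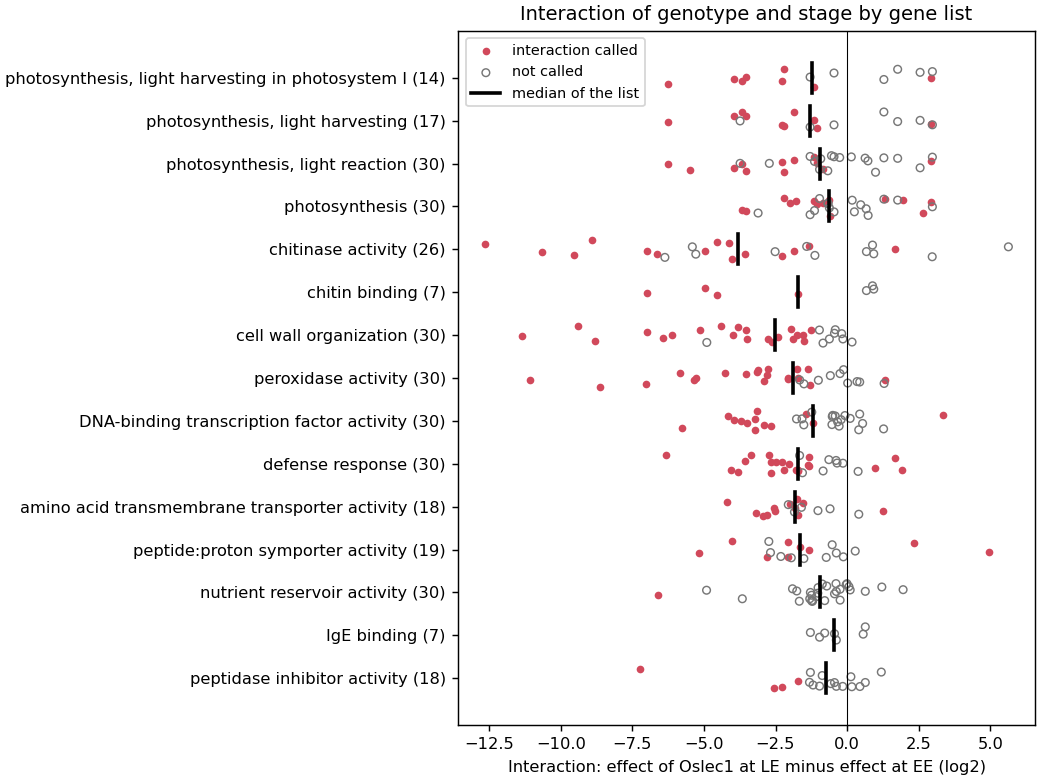
Interaction of genotype and stage, as effect of *Oslec1* at LE minus effect at EE (log2), for the genes of 15 GO lists with the number of tested genes in brackets. Filled red points were called, open grey points were not, and black bars are the medians, which run from -3.80 for chitinase activity to -0.44 for IgE binding.

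Light-harvesting proteins bind chlorophyll and pass light energy to the photosystems. All 17 tested genes of the light harvesting list were higher in *Oslec1* at EE, as their choice by a rise at EE requires. At LE 15 of the 17 were higher, as were 70.9% of all genes at least 4-fold higher in *Oslec1* at EE. The 17 genes together had 878, 740 and 715 CPM in *Oslec1* LE libraries, 30.9, 29.8 and 32.3 CPM in NIP LE libraries, 684, 802 and 710 CPM in *Oslec1* EE libraries and 8.38, 8.88 and 9.71 CPM in NIP EE libraries. The *Oslec1* libraries of both stages overlapped in this sum, whereas all NIP LE libraries lay above all NIP EE libraries. The median change between LE and EE was 0.08 in *Oslec1* and 1.94 in NIP on the log2 scale, and the change in NIP was the larger in size for 17 of 17 genes. Over the 2956 genes at least 4-fold higher in *Oslec1* at EE, these medians were -0.165 and 1.379. A rise in NIP beside a flat level in *Oslec1* was thus not particular to this list, and the choice by the effect at EE favours it.

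The light-harvesting genes did not move as a block. The interaction was lower at LE for 9 of the 17 and higher for 1, and values ran from -6.25 to 2.98. Os09g0346500 (IRGSP-1.0, chromosome 9, 10845779 to 10847012) had 195, 164 and 147 CPM in *Oslec1* LE, 4.7, 3.44 and 2.41 CPM in NIP LE, 115, 136 and 101 CPM in *Oslec1* EE and 0.206, 0.256 and 0.0816 CPM in NIP EE libraries. The genotypes did not overlap at either stage, which was so for 58.2% of all tested genes at LE and 63% at EE. The effect of 5.60 at LE (SE 0.22) was smaller than that of 9.29 at EE (SE 0.33), an interaction of -3.69 (SE 0.49, adjusted p = 0.000127 in edgeR). Os01g0600900 (chromosome 1, 23607363 to 23608541) went against the other called genes of the list. It had 132, 119 and 109 CPM in *Oslec1* LE, 0.054, 0.111 and 0.0408 CPM in NIP LE, 75.1, 75.7 and 75.9 CPM in *Oslec1* EE and 0.206, 0.598 and 0.326 CPM in NIP EE libraries. Its effect was 10.60 at LE (SE 0.23) and 7.67 at EE (SE 0.20), an interaction of 2.93 (SE 0.50, adjusted p = 0.000847 in edgeR). Both genes had at least 75.1 CPM in every *Oslec1* library, and the sign of the interaction was opposite to that of the change in NIP, 4.21 for Os09g0346500 and -2.26 for Os01g0600900 between LE and EE on the log2 scale.

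**Figure D3:**
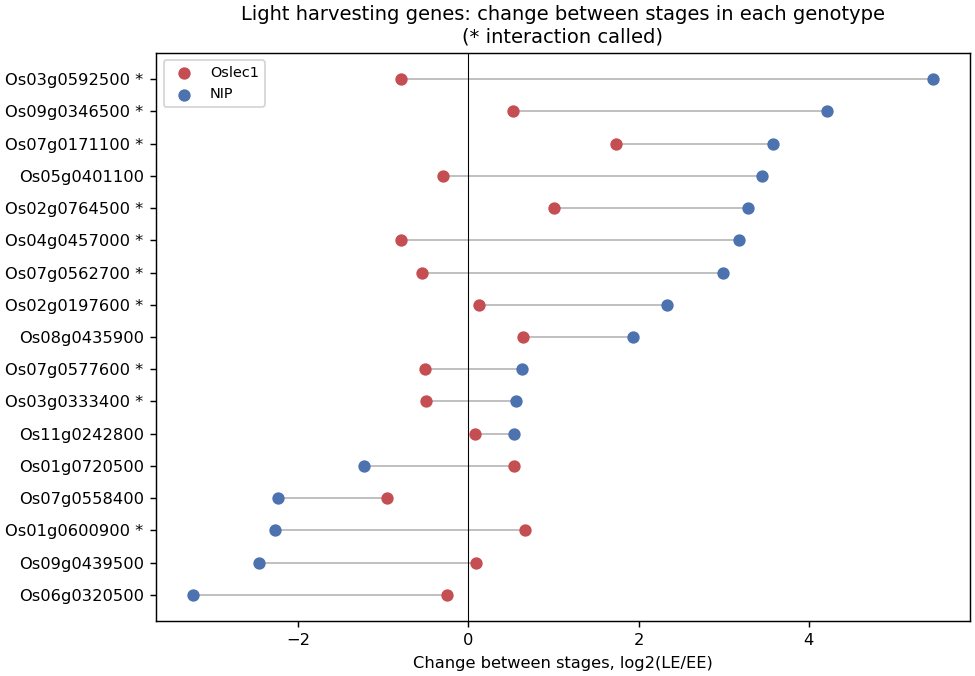
Change between the stages, log2(LE/EE), of the 17 light-harvesting genes in *Oslec1* (red) and NIP (blue), in the order of the change in NIP, with an asterisk on genes with a called interaction. The changes in *Oslec1* lie between -0.95 and 1.73, and those in NIP between -3.23 and 5.45. They may hold an effect of the library code, which differs by stage.

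Of the 30 genes of the photosynthesis list, 30 were higher in *Oslec1* at both stages, and at EE the choice of the list requires this. The effect at LE was the higher one for 4 of them and the lower one for 10, with a median interaction of -0.63, and the corresponding numbers for the 30 genes of the light reaction list were 1 and 11, with a median of -0.94. The lower ones made up 33.3% and 36.7% of the lists, near the 38.2% of the 2956 genes at least 4-fold higher in *Oslec1* at EE. The effect at LE was the higher one for 1.96% of those 2956 genes, a share that the 4 of 30 photosynthesis genes exceed. Os12g0420400 and Os08g0560900, both of the photosynthesis list, had larger effects at LE. Os12g0420400 had 26.1, 21.5 and 20.9 CPM in *Oslec1* LE and 27.5, 21.1 and 27.8 CPM in *Oslec1* EE libraries, against 2 counts in the NIP LE libraries together and 0.206, 0.256 and 0.245 CPM in NIP EE libraries. The ratio at LE of 633 had a counting interval of 175 to 5230 (95%, exact Poisson, covering counting error only), and the interaction of 2.64 (SE 0.85, adjusted p = 0.0313 in edgeR) was lost with NIP LE replicate 2 or 3 or any of the NIP EE libraries left out, with library size only, with limma voom and on log2 FPKM with 1 added. Os08g0560900 had 48.5, 41.5 and 44 CPM in *Oslec1* LE, 0.54, 0.666 and 0.571 CPM in NIP LE, 33.7, 36.4 and 34.5 CPM in *Oslec1* EE and 1.79, 1.88 and 1.79 CPM in NIP EE libraries. Its interaction of 1.95 (SE 0.18, adjusted p = 8.56e-06 in edgeR) turned to -1.75 on the FPKM values, among which *Oslec1* LE replicate 2 had 17.9 FPKM and the other two 1.23 and 1.18 FPKM.

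Chitinases cleave chitin, a polymer of fungal walls, and many plant chitinases take part in defence. The chitinase list had the lowest median interaction of the lists, -3.80, with a median effect of 2.84 at LE and 6.67 at EE. The effect at LE was lower for 14 of its 26 genes and higher for 1. The 26 genes together had 595, 503 and 589 CPM in *Oslec1* LE, 83.6, 64.8 and 106 CPM in NIP LE, 1392, 2121 and 2059 CPM in *Oslec1* EE and 30.4, 58.7 and 39.1 CPM in NIP EE libraries. Both the chitinase and the light-harvesting sum were higher at LE than at EE in every NIP library, but only the chitinase sum was also lower at LE than at EE in every *Oslec1* library.

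Of these 26 genes, 10 lie next to one another on chromosome 11, between 28722579 and 28761600 in IRGSP-1.0, and 8 of the 10 had a called interaction, 7 with a lower effect at LE. Os11g0702200 (28760411 to 28761600), at the end of the row, had 0.574, 0.691 and 0.19 CPM in *Oslec1* LE and 0.108, 0 and 0.489 CPM in NIP LE libraries, against 67.4, 114 and 89.4 CPM in *Oslec1* EE and no counts in NIP EE libraries. It was thus at least 383-fold higher in *Oslec1* than in NIP at EE, and its effect of 1.27 at LE (SE 0.80) missed the threshold (adjusted p = 0.214 in edgeR). Os11g0701000 and Os11g0701200 of the same row had no counts in NIP EE libraries either, and were at least 301-fold and at least 74.4-fold higher in *Oslec1* at EE. At LE Os11g0701000 was 7.49-fold higher, while the ratio of 3.56 for Os11g0701200 missed the threshold (adjusted p = 0.0679 in edgeR). The called interaction of Os11g0701200 (adjusted p = 0.014 in edgeR) was lost without NIP LE replicate 1 and with limma voom. Os11g0701400 (28735986 to 28737061) had 14.1, 31.9 and 26.6 CPM in *Oslec1* LE, 0.54, 1.26 and 8.6 CPM in NIP LE and 207, 331 and 288 CPM in *Oslec1* EE libraries, against 3 counts in the NIP EE libraries together.

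Os11g0701100 (28730171 to 28731320) was the exception in the row. It had 9.78, 13.9 and 15.6 CPM in *Oslec1* LE, 0.324, 0.037 and 0.652 CPM in NIP LE, 214, 272 and 282 CPM in *Oslec1* EE and 16.8, 29.5 and 17.4 CPM in NIP EE libraries, so that the gene was lower at LE in both genotypes and its interaction was 1.69 (SE 0.59, adjusted p = 0.0424 in edgeR). This gene was singled out after its values were seen. Its call was lost without *Oslec1* LE replicate 2 or 3, NIP LE replicate 1 or 2, any *Oslec1* EE library or NIP EE replicate 2, with library size only, with limma voom and on log2 FPKM with 0.1 added, and its sign turned on log2 FPKM with 1 added. Genes of such a row can be near-identical copies, and how the counting shared reads among copies is not given in the sources used here, so the split among neighbours is uncertain. Outside the row, Os08g0518900 (chromosome 8) had 17.8, 20.8 and 17.4 CPM in *Oslec1* LE, 0.54, 0.888 and 5.02 CPM in NIP LE, 230, 445 and 372 CPM in *Oslec1* EE and 4.26, 12.8 and 8.56 CPM in NIP EE libraries. The effects of 3.08 and 5.37 differed by -2.29 (SE 0.78, adjusted p = 0.0385 in edgeR), a call that was lost with any *Oslec1* LE library, NIP LE replicate 3, *Oslec1* EE replicate 2 or 3, or NIP EE replicate 1 or 3 left out, and also with DESeq2, with limma voom and on log2 FPKM with 0.1 added.

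**Figure D4:**
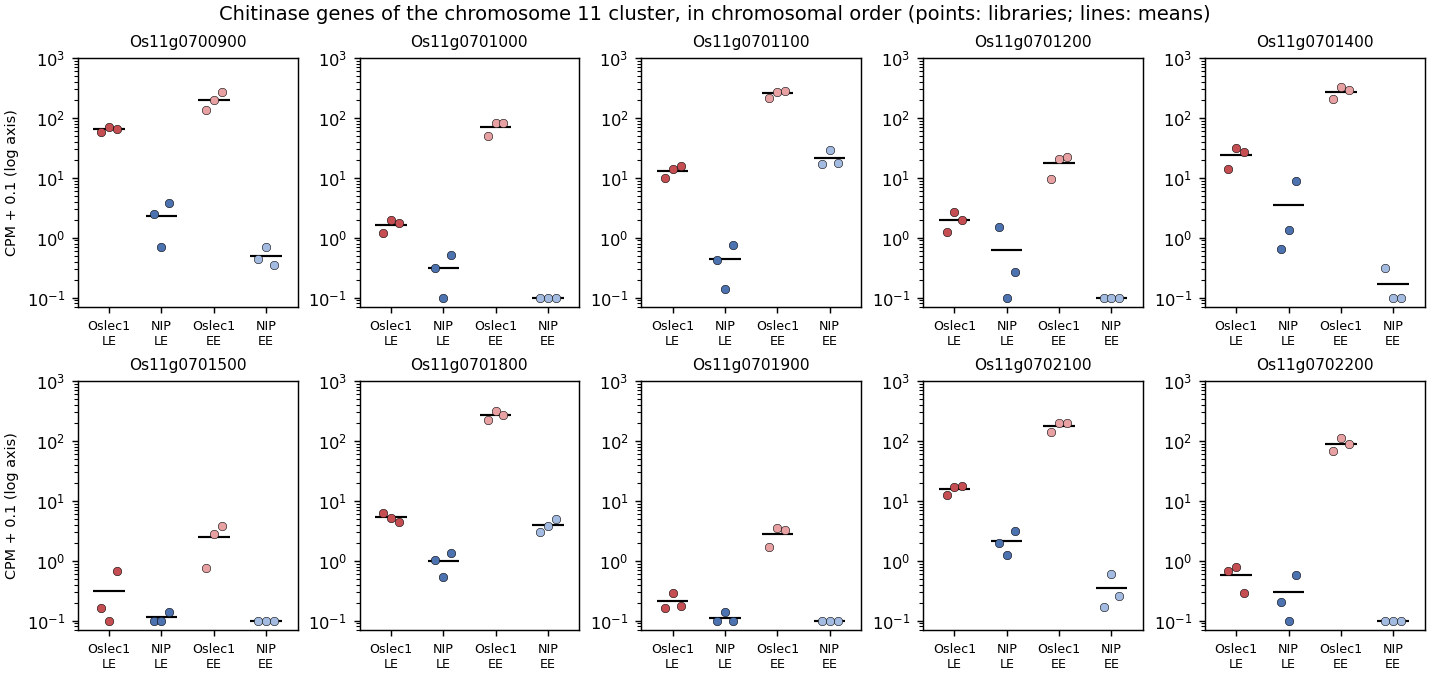
Levels of the 10 tested chitinase genes of the chromosome 11 row in the 12 libraries, as CPM + 0.1 on a log axis, with points for libraries and lines for the means of *Oslec1* LE, NIP LE, *Oslec1* EE and NIP EE. The *Oslec1* EE libraries are the highest for all 10 genes, and the mean of NIP EE lies below that of NIP LE except in Os11g0701100 and Os11g0701800.

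Chitin-binding proteins carry domains that attach to chitin. The interaction was lower at LE for 4 of 7 genes of the list. Os06g0726200 (chromosome 6, 30890834 to 30892050) had 89.3, 102 and 156 CPM in *Oslec1* LE, 33.2, 24.6 and 29.3 CPM in NIP LE, 25.6, 36.5 and 42.7 CPM in *Oslec1* EE and 0.137, 0.94 and 0.0816 CPM in NIP EE libraries. Levels were higher at LE than at EE in every library of both genotypes, and the larger stage change in NIP gave an interaction of -4.56 (SE 0.59, adjusted p = 0.000104 in edgeR). Os03g0133400, the other gene named from this list, had an interaction of -1.72.

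Peroxidases oxidise substrates with hydrogen peroxide, in walls and in detoxification. The interaction was lower at LE for 19 of 30 genes of the peroxidase list and higher for 1, with 26 genes higher and 2 lower in *Oslec1* at LE. Os03g0368300 had 8.98, 17.8 and 15 CPM in *Oslec1* EE libraries, no counts in NIP EE libraries and at most 0.114 CPM in any LE library, so that it was at least 59.1-fold higher in *Oslec1* at EE with no difference detectable at the depth of the LE libraries. Os07g0677100 was 8.8-fold higher in *Oslec1* at LE and at least 85.3-fold higher at EE, with an interaction that was lost with limma voom, and the neighbouring Os07g0676900 was 23.1-fold higher at LE and 74-fold higher at EE. Os05g0134400 had 41, 48.8 and 42.2 CPM in *Oslec1* LE, 0.811, 1.26 and 0.734 CPM in NIP LE, 276, 214 and 299 CPM in *Oslec1* EE and 1.65, 0.256 and 0.408 CPM in NIP EE libraries, and the interaction of -2.79 (SE 0.53) came with a lower level at LE in *Oslec1* and overlapping NIP libraries.

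In the cell wall organization list, the interaction was lower at LE for 21 of 30 genes. *Oslec1* was higher at LE for 19 of the 30 and lower for 3. Os01g0823100 (chromosome 1, 35145517 to 35147323) had 46.2, 21 and 40.3 CPM in *Oslec1* EE libraries, against 0.137, 0.171 and 0.0816 CPM in NIP EE libraries. At LE it had 3.09, 1.88 and 1.6 CPM in *Oslec1* and 4.54, 4.48 and 2.28 CPM in NIP libraries, an effect of -0.76 (SE 0.35) that missed the threshold (adjusted p = 0.0911 in edgeR). Os01g0311800 and Os02g0275200, both without counts in NIP EE libraries, were at least 128-fold and at least 108-fold higher in *Oslec1* at EE. At LE the ratio of *Oslec1* to NIP was 2.05 for Os01g0311800, which missed the threshold (adjusted p = 0.299 in edgeR), and Os02g0275200 was 6.54-fold higher. The call of the interaction of Os02g0275200 was lost with limma voom. In both, NIP LE replicate 3 stood apart, with 8.93 and 7.18 CPM against at most 1.19 CPM in the other NIP LE libraries. The most abundant called genes, Os10g0450900 and Os11g0539200, had smaller interactions of -2.61 and -1.75.

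Glycosyl hydrolases outside the chitinases gave 2 of the largest differences. Os02g0765600 (chromosome 2, 32248329 to 32250174) had 138, 195 and 205 CPM in *Oslec1* LE, 15.9, 9.99 and 8.4 CPM in NIP LE and 119, 195 and 140 CPM in *Oslec1* EE libraries, against 1 count in the NIP EE libraries together. Os07g0538000 (chromosome 7, 21150017 to 21152324) had 27.1, 23.4 and 27.8 CPM in *Oslec1* LE, 3.57, 2.37 and 2.85 CPM in NIP LE, 25.1, 31.4 and 30.4 CPM in *Oslec1* EE and no counts in NIP EE libraries. The *Oslec1* libraries of both stages overlapped in both genes, as in the light-harvesting sum, and the interactions were -8.24 and -9.12.

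Transcription factors bind DNA and switch genes on or off. For 12 of the 30 genes of this list, the interaction was lower at LE. This 40% is near the 38.2% of the 2956 genes at least 4-fold higher in *Oslec1* at EE. The interaction was higher at LE for 1 gene. That 1 gene, Os03g0183000 (chromosome 3, 4348736 to 4350531), had 53.3, 51.1 and 43.8 CPM in *Oslec1* LE, 0.919, 0.888 and 1.1 CPM in NIP LE, 69.2, 69.4 and 78.5 CPM in *Oslec1* EE and 15.5, 13.6 and 14.5 CPM in NIP EE libraries. Its effect of 5.66 at LE (SE 0.14) exceeded that of 2.31 at EE (SE 0.11) by 3.35 (SE 0.17, adjusted p = 1.01e-07 in edgeR), with a change between LE and EE of -3.90 in NIP and -0.55 in *Oslec1*. Os09g0528200 (chromosome 9, 20671994 to 20673280) had 183, 235 and 245 CPM in *Oslec1* LE, 71.3, 102 and 137 CPM in NIP LE, 80.8, 82.2 and 72.5 CPM in *Oslec1* EE and 2.2, 1.2 and 2.69 CPM in NIP EE libraries, an interaction of -4.16 (SE 0.36). Os05g0121600 had 191, 154 and 173 CPM in *Oslec1* LE, 127, 116 and 101 CPM in NIP LE, 448, 534 and 516 CPM in *Oslec1* EE and 23.7, 42.2 and 22.2 CPM in NIP EE libraries, and its level was lower at LE in *Oslec1* and higher at LE in NIP.

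In the defense response list, the interaction was lower at LE for 19 of 30 genes and higher for 3. Os11g0701800, with -3.57, and Os04g0350100, with -1.72, were the most abundant called members of the list. Os11g0701800 is in the chitinase list and also in that of enzyme inhibitor activity, so its function is not settled here. Os04g0350100, also a peptidase inhibitor, had 216, 232 and 237 CPM in *Oslec1* LE, 95, 101 and 113 CPM in NIP LE, 413, 432 and 439 CPM in *Oslec1* EE and 64, 51.5 and 60.4 CPM in NIP EE libraries. Every *Oslec1* library stood above every NIP library of both stages.

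Transporters move nutrients across membranes. The interaction was lower at LE for 11 of 18 amino acid transporters and higher for 1. Os02g0788800 (chromosome 2, 33511971 to 33517881) had 176, 203 and 181 CPM in *Oslec1* LE and 203, 244 and 260 CPM in NIP LE libraries, with an effect of -0.34 (SE 0.15, adjusted p = 0.0763 in edgeR). It had 428, 318 and 340 CPM in *Oslec1* EE against 27.3, 27.2 and 19.7 CPM in NIP EE libraries, an effect of 3.87 (SE 0.17). Os04g0659800 of the same list had an interaction of -1.73. Of 19 peptide:proton symporters, the interaction was lower at LE for 7 and higher for 2. The 36.8% lower at LE is near the 38.2% of the 2956 genes at least 4-fold higher in *Oslec1* at EE. The 2 most abundant called symporters, Os06g0264500 and Os11g0283500, both had an interaction of -2.07. Os01g0871900, a peptide:proton symporter with the opposite sign, was 45.1-fold higher in *Oslec1* at LE and 8.84-fold higher at EE, an interaction of 2.32 that missed the threshold on the FPKM values.

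Nutrient reservoir proteins are stores of nitrogen and carbon, and seed storage proteins are made in the endosperm as well as in the embryo. At LE, 23 of 30 genes of this list were higher in *Oslec1*, and at EE 29 were higher, which their choice by a rise at EE favours. The interaction, with a median of -0.94, was called for 1 gene. The 30 genes together had 1133, 161 and 579 CPM in *Oslec1* LE, 212, 137 and 81.4 CPM in NIP LE, 58110, 56250 and 54440 CPM in *Oslec1* EE and 7065, 8412 and 6612 CPM in NIP EE libraries. Levels at LE were far below those at EE in both genotypes, by a median log2 change of -6.10 in *Oslec1* and -5.38 in NIP, and the sums of the *Oslec1* LE libraries spread widely and overlapped with those of NIP LE. Os01g0762500, the most abundant gene of the list, had 188, 13.5 and 70.7 CPM in *Oslec1* LE, 21.1, 13.4 and 9.13 CPM in NIP LE, 13125, 12428 and 12497 CPM in *Oslec1* EE and 1595, 1963 and 1572 CPM in NIP EE libraries. Its effects of 2.65 (SE 0.65) and 2.89 (SE 0.64) differed by -0.24 (SE 0.86, adjusted p = 0.856 in edgeR). Os10g0400200, the next most abundant, had an interaction of -0.71 (SE 0.76, adjusted p = 0.503 in edgeR).

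The SEs of these genes are wide, so no equality of the effects at the stages is shown. The 1 called gene was Os09g0568700 (chromosome 9, 22699925 to 22700959), with 17.1, 20.5 and 14.3 CPM in *Oslec1* LE, 2.76, 1.66 and 3.87 CPM in NIP LE, 99.8, 87.7 and 107 CPM in *Oslec1* EE and 0.137, 0.171 and 0.163 CPM in NIP EE libraries. Its interaction was -6.60 (SE 0.49), and unlike the abundant genes above it was higher at LE than at EE in NIP. The interaction was called for 0 of 7 genes of the IgE binding list, a list of allergens (edgeR; 0 also at an unadjusted p under 0.05, with DESeq2 and with limma voom), and for 4 of 18 peptidase inhibitors, all lower at LE, with Os01g0124100 at -2.28. Under the alternatives, 0 to 14 nutrient reservoir genes and 0 to 3 IgE binding genes were called lower at LE. Counts of the lists above moved as well. Those lower at LE ranged from 3 to 16 for chitinases (0 to 5 higher), 2 to 11 for light harvesting and 6 to 24 for peroxidases. For cell wall organization and photosynthesis the ranges were 12 to 27 and 5 to 17. Whether RNA of endosperm attached to the embryos took part in the levels of storage genes, or of other genes at EE, was not tested.

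Other listed genes had larger effects at LE. Os11g0167800 (response to oxidative stress, chromosome 11, 3278451 to 3279419) had 17.2, 15.4 and 16.7 CPM in *Oslec1* LE and no counts in NIP LE libraries, which is at least 125-fold higher. At EE it had 5.39, 4.88 and 8.64 CPM in *Oslec1* and 0.618, 0.171 and 0 CPM in NIP libraries. The call of its interaction (adjusted p = 0.00656 in edgeR) was lost without NIP EE replicate 1. Os01g0895200 (oxidation-reduction, chromosome 1, 38916092 to 38917927) had 8.25, 10.7 and 11.3 CPM in *Oslec1* LE and no counts in NIP LE libraries, at least 76.6-fold higher, and 90.3, 119 and 130 CPM in *Oslec1* EE against 8.18, 4.78 and 4.89 CPM in NIP EE libraries. This gene was lower at LE in both genotypes, and on log2 FPKM with 1 added, which compresses low values, its interaction was -1.65.

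Among transporters and enzymes with positive interactions, Os03g0197100, a proton symporter, was 130-fold higher in *Oslec1* at LE and 21.2-fold higher at EE (interaction 2.63, SE 0.41). Os11g0508600, an anion transporter, was 126-fold and 12.9-fold higher (3.22, SE 0.55), though its call was lost with limma voom and its sign turned on log2 FPKM with 1 added. Os02g0814400, a heme-binding oxidoreductase, was 41.3-fold and 5.8-fold higher (2.77, SE 0.22), and Os11g0289700, a monooxygenase, 30.4-fold and 8.45-fold (1.88, SE 0.39). Os10g0419400, of the iron ion binding list, was 18.5-fold and 5.21-fold higher (1.76, SE 0.34), a call that was lost on the FPKM values. In all 5 genes *Oslec1* was higher at both stages, which their choice by a rise at EE and a positive interaction requires.

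Reversed effects were counted where the effect at LE, the effect at EE and the interaction were all called and the effects had opposite signs. Of the 1002 such genes (4.02% of those tested), 520 were higher in *Oslec1* at LE and lower at EE, and 482 were lower at LE and higher at EE. Effects of at least 2-fold at both stages were found for 173 (0.695%), 97 and 76 in the same order. With library size only, the classes were 224 and 1516, and 49 and 101 at 2-fold or more, so the balance of the 2 directions depends on the scaling.

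Of the 97 genes, Os08g0473600 (chromosome 8, 23335167 to 23337076), which has no function given here, had 2574, 2799 and 2973 CPM in *Oslec1* LE, 214, 228 and 189 CPM in NIP LE, 268, 380 and 339 CPM in *Oslec1* EE and 3294, 2313 and 3442 CPM in NIP EE libraries. The effect was 3.73 at LE (SE 0.18) and -3.20 at EE (SE 0.18), an interaction of 6.92 (SE 0.26, adjusted p = 2.27e-08 in edgeR), and the *Oslec1* LE and NIP EE libraries overlapped at a high level, while the NIP LE and *Oslec1* EE libraries all lay at or below 380 CPM. Os09g0451000 (chromosome 9, 16886142 to 16887605), also without a function given here, had 0.988, 1.19 and 1.98 CPM in *Oslec1* LE, 1 count in the NIP LE libraries together, 1.96, 1.27 and 2.97 CPM in *Oslec1* EE and 24.1, 17.9 and 25.5 CPM in NIP EE libraries. Its *Oslec1* libraries overlapped between the stages, while NIP lay below them at LE and above them at EE, an interaction of 9.54 (SE 0.74). The FPKM values of Os09g0451000 were 17.2, 21.6 and 20.6 in *Oslec1* LE and 0.178, 0.0535 and 0.882 in NIP LE libraries. These stand far from the counts, so the size of its interaction is uncertain, and why the 2 measures differ was not tested.

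The other direction, with *Oslec1* lower at LE and higher at EE, held all 10 reversed genes of the GO lists, as their choice by a rise at EE requires. Of the 10, 6 had effects of at least 2-fold at both stages, and 4 of these reached 10 CPM. Os06g0718100, of the cell wall organization list (chromosome 6, 30520195 to 30521345), had 10.2, 4.87 and 4.68 CPM in *Oslec1* LE, 95.3, 97.3 and 68.8 CPM in NIP LE, 139, 71.3 and 66.9 CPM in *Oslec1* EE and 8.52, 11.7 and 8.65 CPM in NIP EE libraries. Effects of -3.71 (SE 0.35) and 3.27 (SE 0.35) gave an interaction of -6.98 (SE 0.49, adjusted p = 8.31e-07 in edgeR), in a mirror image of Os08g0473600. The peroxidase Os07g0639000 (chromosome 7, 26603637 to 26604964) had 15.6, 13.4 and 16.2 CPM in *Oslec1* LE, 84.4, 77.1 and 67.2 CPM in NIP LE, 67.5, 49.3 and 45.7 CPM in *Oslec1* EE and 9.96, 6.32 and 3.67 CPM in NIP EE libraries, an interaction of -5.34 (SE 0.36). The genotypes did not overlap at either stage in either gene, which was so for 58.2% of all tested genes at LE and 63% at EE.

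The transcription factor Os06g0181700 (chromosome 6, 4040784 to 4041763) had 2.23, 1.3 and 1.03 CPM in *Oslec1* LE, 9.13, 7.14 and 4.32 CPM in NIP LE, 29.2, 16.5 and 22.6 CPM in *Oslec1* EE and 1.31, 1.96 and 2.28 CPM in NIP EE libraries, with effects of -2.14 and 3.63. Os01g0902700, a peptide:proton symporter named after its values were seen as the fourth of these genes, had 5.19, 7.6 and 8.15 CPM in *Oslec1* LE, 8.54, 15.5 and 18 CPM in NIP LE, 5.39, 1.68 and 2.92 CPM in *Oslec1* EE and 0.55, 0.512 and 0.163 CPM in NIP EE libraries, with effects of -1.01 and 3.0. Without a function given here, Os04g0674500 had effects of -2.68 (SE 0.37) and 5.13 (SE 0.62). Os01g0907600, likewise, had 257, 288 and 362 CPM in *Oslec1* LE, 1754, 1520 and 1282 CPM in NIP LE, 4.01, 6.25 and 5.17 CPM in *Oslec1* EE and 0.962, 1.45 and 0.0816 CPM in NIP EE libraries. This gene was higher at LE in both genotypes, and *Oslec1* was the lower genotype at LE and the higher one at EE.

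**Figure D5:**
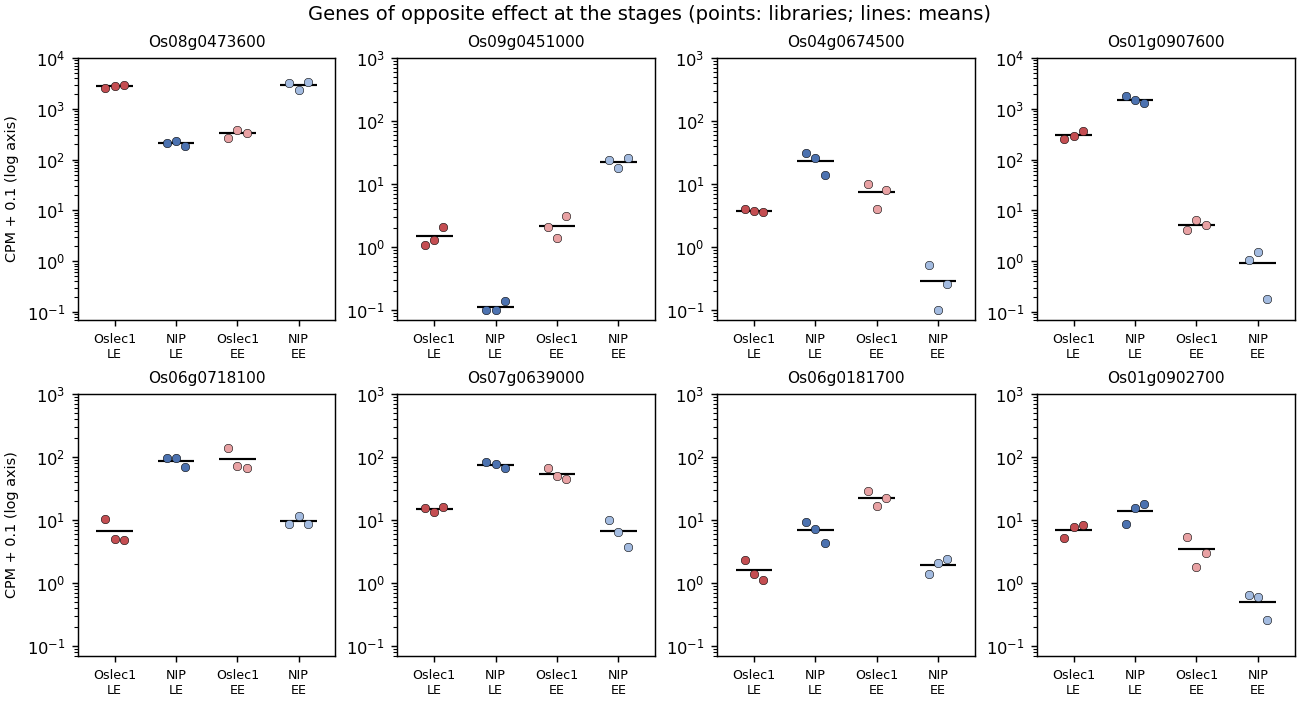
Levels of 8 genes of opposite effect in the 12 libraries, as CPM + 0.1 on a log axis, with points for libraries and lines for means, in the order *Oslec1* LE, NIP LE, *Oslec1* EE, NIP EE. The first 2 are higher in *Oslec1* at LE and lower at EE, and the other 6 are lower at LE and higher at EE.

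Genes with an interaction also lay side by side. Runs of at least 4 neighbouring tested genes with called interactions of the same sign and at least 2-fold numbered 17, holding 72 genes, 9 runs with higher and 8 with lower effects at LE. The longest held 8 genes, at chr12:727802-779641, and none of them is in the GO lists. Their effects had a median of 2.88 at LE and 0.13 at EE, and interactions ran from 1.63 to 3.93, with 3 of the 8 reversed. At chr6:2199361-2213482, 4 abundant genes had effects of 1.96 to 4.06 at LE and -2.17 to -0.93 at EE, with levels of 64 to 312 CPM in *Oslec1* LE, 7.92 to 79.9 CPM in NIP LE, 215 to 1470 CPM in *Oslec1* EE and 934 to 4350 CPM in NIP EE embryos. Runs of the other sign included 4 genes at chr7:21167408-21225870, next to the glycosyl hydrolase Os07g0538000, with effects of 3.38 to 5.96 at LE and 6.51 to 11.87 at EE. Neighbours in a run may be copies or share reads, and their number was not set against chance.

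The files name 69 tested genes of noncoding RNA, and the interaction was called for 16 of them, 15 with a lower effect at LE and 1 with a higher one, at low levels. The share of all tested genes with a call was 33.4%, with 16.7% in each direction. MIR1428 (ENSRNA049472287, chromosome 2, 2535029 to 2535152), a microRNA precursor, had 3 counts in the *Oslec1* LE libraries together and 9.08, 11.4 and 12.8 CPM in NIP LE libraries, against 1 and 0 counts in the *Oslec1* EE and NIP EE libraries together. The ratio of NIP to *Oslec1* at LE was 325, with a counting interval of 111 to 1580 (95%, exact Poisson). Its effect at LE was -8.06 (SE 0.46), and the call of the interaction (adjusted p = 0.0244 in edgeR) was lost without *Oslec1* EE replicate 2, the library with the only count at EE. MicroRNAs are measured here as precursors in polyadenylated RNA, not as mature molecules.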

How the data were processed

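Polyadenylated RNA of *Oslec1* and NIP embryos at LE and EE was sequenced, with 3 replicates per group, and libraries were assigned to groups by their titles. The authors trimmed reads with Trimmomatic 0.36, mapped them with HISAT2 2.1.0 to IRGSP-1.0 and deposited raw counts per gene, without normalization, and FPKM values from StringTie 1.3.4d. The program that counted the reads is not given in the sources used here.

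The counts were fitted with edgeR 4.0.16 in R 4.3.3 (filterByExpr, TMM, 4 group means, glmQLFTest). Calls have a Benjamini-Hochberg adjusted p under 0.05. A count of 0 allows 3 counts per library, or 0.108, 0.132, 0.138 and 0.236 CPM on average in *Oslec1* LE, NIP LE, *Oslec1* EE and NIP EE libraries. Intervals and floors cover counting error only. The 12 genes with the highest and the 12 with the lowest interaction were taken from genes listed or named by the files. These had a called interaction, at least 10 CPM in a group and no overlap of the genotypes at a stage. The reversed genes had effects of at least 2-fold at both stages and at least 10 CPM in a group. They were among the 10 per direction with the largest smaller effect, and at most 2 per direction without a function are printed. The 2 most abundant called genes per list, and the most abundant nutrient reservoir genes with or without a call, were taken without conditions on CPM or overlap. Os01g0902700 and Os11g0701100 were added after their values were seen. Lists by gene description and cell type markers could not be applied, since no annotation here pairs descriptions with the identifiers, and the GO lists of the study's supplement replaced them. Of 481 listed genes, 473 were tested. The members and lists were chosen with earlier results of these data known.

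The alternatives changed the scaling (RLE factors, TMM after removal of the 50 most abundant genes, library size only), the filter (10 counts or more in each library, or none) or the model: DESeq2 1.42.0, limma voom (limma 3.58.1), limma on log2 FPKM with 1 or 0.1 added (FPKM of at least 0.5 in 3 libraries), glmTreat, unadjusted p, a replicate block, stage effects from the 6 libraries of a stage, and each library left out. Fold values are ratios of mean CPM. In simulated data with 200 changed genes among 24638, the interaction test called 81 of 100 genes changed by a log2 of 2, 30 of 100 changed by 1, and 5 of 24438 unchanged genes, so small interactions are missed when few genes change.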

Additional observations from a re-analysis of the deposited data

Results flagged for a closer look

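The results below were picked out because the effect of *Oslec1* differed between LE and EE by the test of the interaction itself (edgeR, adjusted p under 0.05). They number 8321 genes in all, 1984 with a difference of at least 4-fold, 1002 with reversed effects and 173 with reversed effects of at least 2-fold at both stages. With 3 libraries per group, no test for single outlying libraries was run. No counts were found in NIP EE libraries for Os11g0702200, Os11g0701000, Os11g0701200, Os01g0311800, Os02g0275200, Os07g0538000, Os03g0368300, Os07g0677100 and MIR1428. None were found in NIP LE libraries for Os11g0167800 and Os01g0895200. The values of these genes below are fitted ones and no bounds, so their sizes and order are uncertain.

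Among the genes described, the interaction (log2 effect at LE minus log2 effect at EE) was -12.66 for the chitinase Os11g0702200, -10.67 for Os11g0701000, -9.54 for Os11g0701200, -8.92 for Os11g0701400, -3.57 for Os11g0701800 and -2.29 for Os08g0518900. Their neighbour Os11g0701100 had 1.69. The chitin-binding genes Os06g0726200 and Os03g0133400 had -4.56 and -1.72.

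Cell wall genes had -11.34 (Os01g0311800), -9.41 (Os02g0275200), -8.81 (Os01g0823100), -2.61 (Os10g0450900) and -1.75 (Os11g0539200), and the glycosyl hydrolases Os07g0538000 and Os02g0765600 had -9.12 and -8.24. Peroxidases had -11.07 (Os03g0368300), -8.64 (Os07g0677100), -2.79 (Os05g0134400) and -1.70 (Os07g0676900).

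The microRNA precursor MIR1428 (ENSRNA049472287) had -9.92, with its called effect at LE. The transcription factors Os09g0528200 and Os05g0121600 had -4.16 and -3.50, and the light-harvesting gene Os09g0346500 had -3.69. Amino acid transporters had -4.21 (Os02g0788800) and -1.73 (Os04g0659800), and the peptide:proton symporters Os11g0283500 and Os06g0264500 both had -2.07. The nutrient reservoir gene Os09g0568700 had -6.60, and the peptidase inhibitors Os01g0124100 and Os04g0350100 had -2.28 and -1.72.

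Larger effects at LE, among genes of the GO lists only, were found for Os11g0167800 (7.01), Os01g0895200 (6.53), Os03g0183000 (3.35), Os11g0508600 (3.22), Os01g0600900 (2.93), Os02g0814400 (2.77), Os12g0420400 (2.64), Os03g0197100 (2.63), Os01g0871900 (2.32), Os08g0560900 (1.95), Os11g0289700 (1.88) and Os10g0419400 (1.76). The reversed genes named had 9.54 (Os09g0451000), 6.92 (Os08g0473600), -7.80 (Os04g0674500), -6.98 (Os06g0718100), -5.78 (Os06g0181700), -5.34 (Os07g0639000), -4.94 (Os01g0907600) and -4.02 (Os01g0902700).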

How the results depend on the processing

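With library size only, 12728 genes had a called interaction and 1740 had reversed effects, and limma on log2 FPKM with 0.1 added gave 13654 and 1693, with 1 added 14248 and 1900. The last also gave 901 genes of at least 4-fold and 58 reversed at 2-fold or more. FPKM are scaled by library size too, and under both the calls lean to lower effects at LE. Requiring at least 10 counts in every library left 18714 genes tested, 754 with an interaction of at least 4-fold and 80 reversed at 2-fold or more, of which 526 and 60 were higher at LE. The glmTreat test against a log2 change of 1 called 1805 genes. The other alternatives kept each count within 1.5 times. Without 1 library, counts were 6944 to 8292 for the interaction, 1842 to 2043 at 4-fold, 702 to 1092 reversed, 147 to 224 reversed at 2-fold, 9845 to 12642 for the effect at LE and 12640 to 14421 at EE. Of the 8321 calls, 8048 (96.7%) recurred in the same direction with RLE factors, 8029 (96.5%) with DESeq2 and 6047 (72.7%) with library size only. Of 51 named genes, 51 kept their call with RLE factors and with no filter, 50 with DESeq2, 49 with library size only, 44 with limma voom, and 588 of 612 values kept it with 1 library left out. On log2 FPKM with 1 added the interaction was -1.65 for Os01g0895200, -1.75 for Os08g0560900, -0.65 for Os11g0508600 and -0.83 for Os11g0701100, and with 0.1 added it was -1.75 for Os08g0560900. Low FPKM values are compressed by the added 1, and other causes were not tested. With the replicate number as a block, 8220 genes were called, 1972 at 4-fold, 1026 reversed and 182 at 2-fold, but the numbers do not pair the libraries: deviations of the 18 same-numbered pairs correlated at -0.10 to 0.37, with 2 over 0.1, and the 36 other pairs at -0.41 to 0.29. Depth limits genes of few counts in NIP EE libraries, where 3 counts are 0.236 CPM.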
